A study of Rattus norvegicus with 35 samples.

Results

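Insulin and insulin-like growth factor signalling was followed in rat hippocampus through 7 genes, Igf1, Igf1r, Insr, Igf2r, Irs1, Irs2 and Igfbp5. They were taken by name from a table of 15059 genes, and all 7 members were found and passed the filter on low counts that left 14411 genes to test. The study measured the hippocampal transcriptome of 35 female Sprague Dawley rats in 7 groups of 5, to ask how breast cancer drugs that act on estrogen signalling affect the brain. All rats had surgery at 6 months of age, followed by a washout of 2 weeks, and tissue was taken 7 days after the first treatment. One group had a sham operation, which leaves the ovaries in place. The other 6 groups were ovariectomised, which removes the ovarian source of estradiol, and received a daily intraperitoneal injection. The vehicle group received vehicle alone and served as the control. The other 5 received estradiol at 0.16 mg per kg, tamoxifen at 3.23 mg per kg, raloxifene at 9.68 mg per kg, exemestane at 0.16 mg per kg or anastrozole at 4.03 mg per kg. The doses are those of the study's design text, which gives exemestane the same dose as estradiol, and whether doses were exchanged there could not be checked. Tamoxifen and raloxifene bind the estrogen receptors and act as agonists or antagonists depending on the tissue, whereas exemestane and anastrozole block aromatase, the enzyme that makes estrogens from androgens.

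Igf1 is a secreted growth factor that binds the receptor tyrosine kinase encoded by Igf1r, while insulin binds the related receptor encoded by Insr. Both receptors phosphorylate the docking proteins Irs1 and Irs2, which pass the signal to PI3 kinase and Akt, and Akt in turn keeps FoxO transcription factors out of the nucleus. In the brain this pathway supports neuronal survival and plasticity, and it is known for crosstalk with estrogen receptors. Igf2r carries Igf2 to the lysosome for breakdown, and Igfbp5 binds Igf1 and Igf2 outside the cell.

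Totals per library ran from 5578204 to 12093294 expected counts, and levels are given in CPM, the counts divided by the scaled library total in mega counts. The 35 libraries fell into 2 classes, named A and B here, by the pattern of the per-gene factors that relate the 2 deposited tables. The labels name no such batch. Class A holds 20 libraries, in which the signal recognition particle RNA Rn7sl1 took 4.47% to 6.49% of the counts, and class B holds 15, with 2.90% to 3.84%. Sham and estradiol have only class A libraries, and raloxifene has only class B. Vehicle has 4 of class A and 1 of class B, tamoxifen 2 and 3, exemestane 1 and 4, and anastrozole 3 and 2. The ranges of library totals and of the scores of all 9 marker lists for brain cell types and neighbouring tissues overlapped between the classes. Overlap of ranges leaves room for shifts. Median scores in class A and class B were 4.02 and 3.86 for microglia, 5.43 and 5.31 for interneurons, and 6.04 and 6.14 for hippocampal excitatory neurons. For oligodendrocytes they were 8.196 and 8.194. Whether tissue content differs between the classes was not tested. Because the groups hold the classes unequally, treatment and class are tied together in this design. Results are given with and without class as a term in the model.

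To show what the start regions of these genes hold, the 250 bases before the annotated start were read from RefSeq, build GRCr8, for Igf1, Igf1r, Insr, Igf2r, Irs1 and Igfbp5. No window for Irs2 was available in the reference sequences used, so that gene was not searched. Both strands were searched for the palindromic estrogen response element GGTCANNNTGACC, for its single arm AGGTCA, for the FoxO motif GTAAACA and for the Sp1 motif GGGCGG. The arm can overlap the full element but needs 1 base outside it. The estrogen response element and its single arm were in none of the 6 windows. Over all 33469 promoter windows of this length, 0.0239% held the full element and 14.06% held AGGTCA. The FoxO motif, in 3.215% of all windows, was found once, in Insr. The Sp1 motif, in 30.47% of all windows, was found once in Igf1r, in 2 places in Irs1 and in 2 places in Igf2r. The 4 windows printed are those of the ligand, its receptor, the insulin receptor and the substrate Irs1, with motif matches in capitals and all other bases in lower case. They lie at chr7:24172282-24172531 on the plus strand (Igf1), chr1:130959747-130959996 on the plus strand (Igf1r), chr12:6128804-6129053 on the minus strand (Insr) and chr9:91053960-91054209 on the minus strand (Irs1).
Igf1: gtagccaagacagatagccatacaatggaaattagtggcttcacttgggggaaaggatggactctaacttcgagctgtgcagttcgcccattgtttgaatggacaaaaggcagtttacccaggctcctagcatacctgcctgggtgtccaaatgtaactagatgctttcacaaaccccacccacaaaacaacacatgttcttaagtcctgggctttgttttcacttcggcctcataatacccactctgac
Igf1r: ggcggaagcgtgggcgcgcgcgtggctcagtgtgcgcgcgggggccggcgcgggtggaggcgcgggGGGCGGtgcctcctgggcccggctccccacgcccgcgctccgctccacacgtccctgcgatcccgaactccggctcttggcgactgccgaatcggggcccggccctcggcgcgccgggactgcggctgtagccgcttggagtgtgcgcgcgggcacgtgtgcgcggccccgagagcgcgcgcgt
Insr: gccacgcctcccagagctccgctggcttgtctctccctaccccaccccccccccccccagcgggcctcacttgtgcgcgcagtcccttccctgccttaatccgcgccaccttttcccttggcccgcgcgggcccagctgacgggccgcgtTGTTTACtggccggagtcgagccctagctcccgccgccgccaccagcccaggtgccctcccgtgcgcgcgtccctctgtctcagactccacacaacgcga
Irs1: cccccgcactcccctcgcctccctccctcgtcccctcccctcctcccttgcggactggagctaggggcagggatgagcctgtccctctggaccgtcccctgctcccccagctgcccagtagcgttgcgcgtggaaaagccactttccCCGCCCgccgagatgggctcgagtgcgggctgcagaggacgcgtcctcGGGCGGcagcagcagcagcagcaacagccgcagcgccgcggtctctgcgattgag
The Igf1 window has a GC content of 46.8% and no capitals, whereas the Igf1r window has a GC content of 79.6%. The capitals in Insr are the FoxO motif read on the other strand. In Irs1 the first run of capitals is the Sp1 motif on the other strand and the next is the motif as spelled.

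Irs2 was called in 4 of the 12 comparisons between groups, Igf1r in 2 and Igfbp5 in 1. Irs2 and Igf1r were lower in the raloxifene and exemestane groups than in the estradiol group. Irs2 was also lower in the raloxifene group than in the vehicle group, and lower in the tamoxifen group than in the estradiol group. Igfbp5 was higher in the exemestane group than in the estradiol group. Igf1, Insr, Igf2r and Irs1 passed the test in none of the 12 comparisons between groups. A call means an adjusted p under 0.05 in the quasi-likelihood test of edgeR, with Benjamini-Hochberg adjustment over all 14411 genes tested.

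Against vehicle, 1 of 7 members was called with raloxifene, where 24.8% of all genes were called. No member was called with exemestane, where 6.51% of all genes were called, and 3 members had an unadjusted p under 0.05. No member was called in sham, estradiol, tamoxifen or anastrozole against vehicle, where 0%, 0.00694%, 0% and 0% of all genes were called by edgeR. Members with an unadjusted p under 0.05 numbered 1 in sham, 1 with estradiol, 0 with tamoxifen and 1 with anastrozole. The test of DESeq2 called 1 member with raloxifene, where it called 27.5% of all genes, and 1 with exemestane, where it called 13.7%. It called 0 members in sham, estradiol, tamoxifen and anastrozole against vehicle, with 0.0763%, 0.118%, 0.576% and 0.00694% of all genes. Against estradiol, edgeR called 1 member with tamoxifen, where 14.2% of all genes were called. It called 2 members with raloxifene (background 44.6%), 3 with exemestane (background 36.8%) and 0 with anastrozole (background 0.00694%). For anastrozole against estradiol, 2 members had an unadjusted p under 0.05 and DESeq2 called 0 (background 0.0416%). A test of any difference among the 7 groups called 2 members, Irs2 and Igf1r, and 37.0% of all genes. The members' counts were near or below the shares over all genes, so they show nothing particular to this set. The comparisons with vehicle share the vehicle libraries, and those with estradiol share the estradiol libraries.

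**Figure D1:**
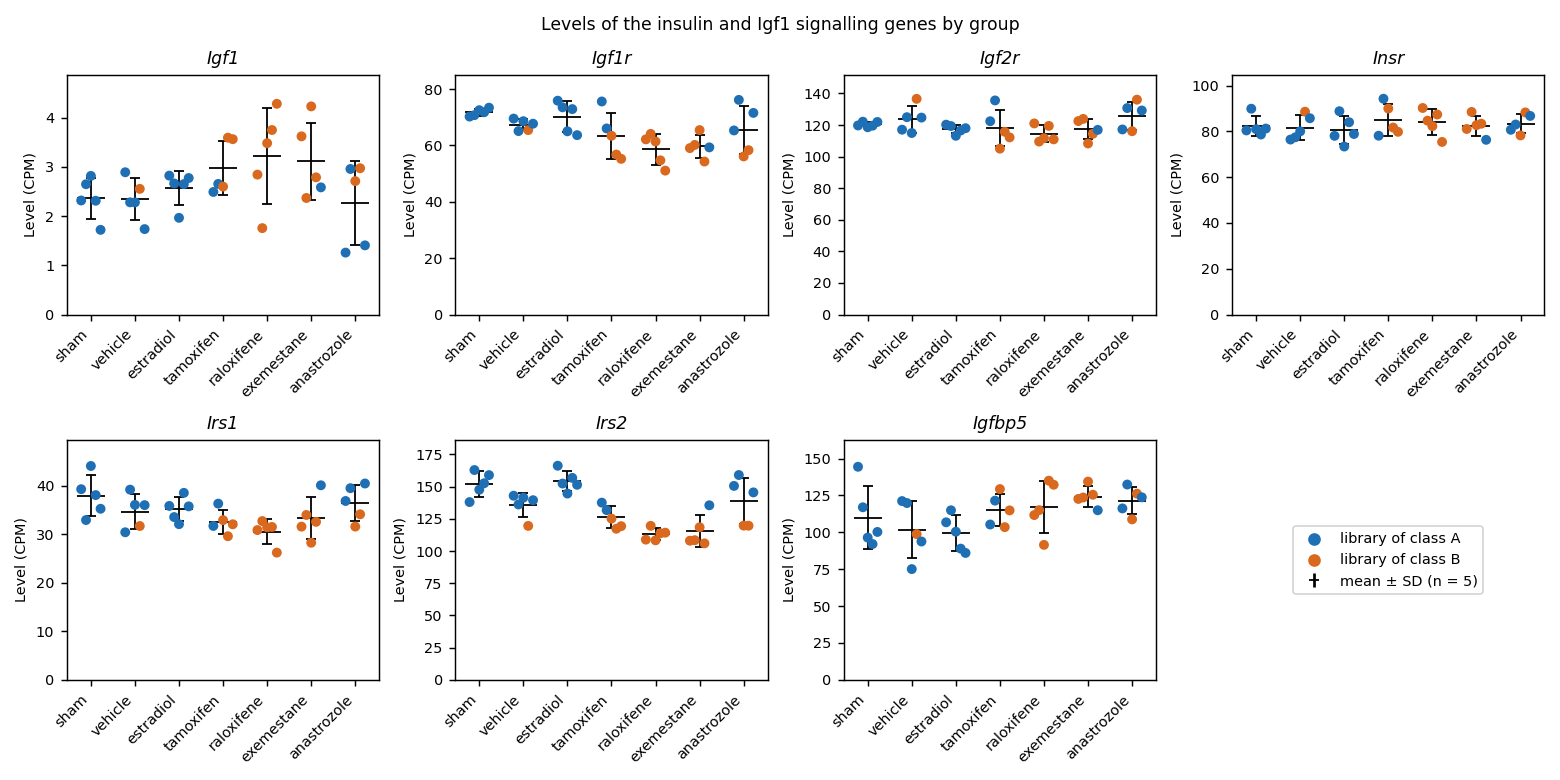
Levels in CPM of the 7 genes in each library by group, with class A libraries in blue, class B libraries in orange and the mean with its SD in black (n = 5 per group). For Irs2 every class B library lies below every class A library, while for Insr the classes overlap, at 73.4 to 94.3 CPM in class A and 75.4 to 90.2 CPM in class B.

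The ligand gene, Igf1, had 10 to 40 counts per library. Its level in CPM was 2.32, 2.65, 2.82, 2.31 and 1.72 in the sham libraries and 2.89, 2.28, 2.28, 2.55 and 1.74 in the vehicle libraries. With estradiol it was 2.82, 2.66, 1.97, 2.65 and 2.77 CPM. The 3 groups overlapped throughout, and the estradiol group did not stand above the others.
Tamoxifen libraries held 2.49, 2.66, 2.60, 3.59 and 3.56 CPM of Igf1, and raloxifene libraries 2.84, 1.76, 3.48, 3.75 and 4.28 CPM. Exemestane libraries held 3.62, 2.37, 4.23, 2.79 and 2.58 CPM, and anastrozole libraries 1.26, 2.96, 2.71, 2.97 and 1.41 CPM. The highest values lie in the raloxifene and exemestane groups, but both groups also reach down into the vehicle range. The log2 fold change against vehicle was 0.46 ± 0.23 (SE) with raloxifene (edgeR adjusted p = 0.137) and 0.42 ± 0.24 with exemestane (edgeR adjusted p = 0.215). With estradiol it was 0.14 ± 0.24 (edgeR adjusted p = 0.852). Class moved with these values: Igf1 was at 3.14 ± 0.716 CPM in the 15 class B libraries and at 2.36 ± 0.50 CPM in the 20 class A libraries (SD), a log2 difference of 0.37 ± 0.18 in the fit with class (edgeR adjusted p = 0.0807). In that fit the log2 fold change against vehicle was 0.17 ± 0.27 with raloxifene and 0.19 ± 0.25 with exemestane (edgeR adjusted p = 0.991 and 0.927). Counting error alone gives a coefficient of variation of 22.2% for 1 library at this depth, set beside 26.3% observed over the 35 libraries. In bulk tissue, fewer cells that make a transcript and less of it per cell cannot be told apart, here and in all results that follow.

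The Igf1 receptor gene, Igf1r, was held within a narrow range in sham rats and was lower in the raloxifene and exemestane groups. Sham libraries had 70.3, 70.8, 72.5, 71.8 and 73.4 CPM, and vehicle libraries had 69.5, 65.1, 68.6, 65.5 and 67.7 CPM. All 5 sham libraries lay above all 5 vehicle libraries, a separation that 1.46% of all genes showed in that comparison. The log2 difference was only 0.09 ± 0.080, and it was not called (edgeR adjusted p = 0.931).
Estradiol libraries had 75.9, 73.5, 65.0, 72.9 and 63.7 CPM of Igf1r, and tamoxifen libraries had 75.6, 66.0, 63.5, 56.8 and 55.3 CPM. Raloxifene libraries had 62.2, 64.1, 61.4, 54.7 and 51.1 CPM, and exemestane libraries had 59.1, 60.2, 65.5, 54.3 and 59.3 CPM. Anastrozole libraries had 65.3, 76.2, 56.1, 58.3 and 71.6 CPM. Within the tamoxifen and anastrozole groups the class A libraries were the high ones and the class B libraries the low ones. All 5 raloxifene libraries were below all 5 vehicle libraries, a separation that 18% of all genes showed in that comparison.
Igf1r fell by 0.26 ± 0.081 on the log2 scale in raloxifene against estradiol (edgeR adjusted p = 0.0107) and by 0.23 ± 0.082 in exemestane against estradiol (edgeR adjusted p = 0.0251). Against vehicle the log2 fold change was -0.20 ± 0.081 with raloxifene (edgeR adjusted p = 0.0689) and -0.17 ± 0.081 with exemestane (edgeR adjusted p = 0.142). Leaving out raloxifene replicate 5, the lowest library, gave an adjusted p of 0.0511 for raloxifene against estradiol in edgeR. The call in exemestane against estradiol was lost without estradiol replicates 1, 2 or 4 or exemestane replicates 1 or 4 (edgeR adjusted p from 0.0533 to 0.0865), and with the authors' per-gene factors (-0.18 ± 0.075, edgeR adjusted p = 0.0891). Once class was in the model, the log2 fold changes against estradiol were -0.07 ± 0.086 and -0.08 ± 0.080, and neither was called (edgeR adjusted p = 0.925 and 0.813).

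The insulin receptor gene, Insr, was the steadiest member, with a coefficient of variation of 6.08% over the 35 libraries. Its group means ran from 80.6 ± 5.93 CPM with estradiol to 84.8 ± 6.99 CPM with tamoxifen (SD, n = 5). Sham rats had 82.2 ± 4.40 CPM and vehicle rats 81.6 ± 5.31 CPM, and every group overlapped every other. The test of any difference among the 7 groups gave an edgeR adjusted p of 0.956. Class B against class A gave a log2 difference of 0.04 ± 0.046 (edgeR adjusted p = 0.440).
Igf2r, the receptor that clears Igf2, was almost as steady, with a coefficient of variation of 6.28%. The sham libraries held 119.7, 122, 119, 119.6 and 122 CPM, an SD of 1.56 CPM. The lowest library, tamoxifen replicate 3, had 105 CPM and the highest, vehicle replicate 4, had 137 CPM. Group means ran from 115 ± 5.30 CPM with raloxifene to 126 ± 8.80 CPM with anastrozole. The test of any difference gave an edgeR adjusted p of 0.388. Neither receptor separated the treatments in these data.

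Among the receptor substrates, Irs2 differed between groups and between the library classes, which are tied together in this design. Sham libraries held 138, 163, 148, 153 and 159 CPM, and vehicle libraries held 143, 136, 141, 119.5 and 139 CPM. Estradiol libraries held 166, 152, 145, 157 and 151 CPM. All 5 estradiol libraries were above all 5 vehicle libraries, a separation that 3.73% of all genes showed. The lowest vehicle library is replicate 4, the 1 vehicle library of class B.
Tamoxifen libraries held 138, 132, 125, 117 and 119 CPM of Irs2. Raloxifene libraries held 109, 119.6, 108, 114 and 114 CPM, and exemestane libraries held 108, 108, 118, 106 and 136 CPM. All libraries of these 3 groups were below all 5 estradiol libraries, as were 4.61%, 35.8% and 15.2% of all genes that separated in either direction in those comparisons. Anastrozole libraries were split, with 151, 159 and 146 CPM in class A and 119.7 and 119.7 CPM in class B. The highest exemestane library, replicate 5, is the 1 exemestane library of class A.
Against vehicle, Irs2 fell by 0.27 ± 0.075 on the log2 scale with raloxifene (edgeR adjusted p = 0.0154). With exemestane its log2 fold change was -0.24 ± 0.075, just outside the threshold (edgeR adjusted p = 0.050001). In the model with group alone, the value without exemestane replicate 5 was -0.30 (edgeR adjusted p = 0.00542), and without vehicle replicate 4 it was -0.26 (edgeR adjusted p = 0.0210). Those are the 1 exemestane library of class A and the 1 vehicle library of class B. Each omission thus brought the comparison nearer to class B against class A. With class as a term, the fits that each left out 1 library gave -0.10 to -0.06, and 0 of 10 passed. With group alone in the model, the log2 fold change of Irs2 was 0.18 ± 0.075 with estradiol and 0.16 ± 0.074 in sham, neither called (edgeR adjusted p = 0.457 and 0.699).
Against estradiol, Irs2 fell by 0.45 ± 0.075 with raloxifene (edgeR adjusted p = 0.000274), by 0.42 ± 0.075 with exemestane (edgeR adjusted p = 0.00137) and by 0.29 ± 0.075 with tamoxifen (edgeR adjusted p = 0.0242). The calls with raloxifene and exemestane passed in 10 of 10 fits that each left out 1 library, and that with tamoxifen in 5 of 10. The latter was lost without estradiol replicates 1 or 5 or tamoxifen replicates 3, 4 or 5, with an edgeR adjusted p from 0.0557 to 0.105. With anastrozole against estradiol the log2 fold change was -0.15 ± 0.075 (edgeR adjusted p = 0.601).

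Across all groups, Irs2 ran from 132 to 166 CPM in the 20 class A libraries and from 106 to 125 CPM in the 15 class B libraries, without overlap. The share of all genes that separate the classes in this way was not counted, so the separation is not read as particular to Irs2. In the fit with class beside the groups, class B libraries were lower by a log2 value of -0.26 ± 0.036 (edgeR adjusted p = 2.25e-07). Over all genes, 51.9% were called between the classes in that fit, and 3 of 7 members were, Irs2, Igf1r and Irs1, all lower in class B. Within class A alone, Irs2 was 140.0 ± 2.93 CPM in 4 vehicle libraries, 154 ± 7.96 CPM in 5 estradiol libraries and 152 ± 9.77 CPM in 5 sham libraries. It was 135 ± 4.12 CPM in 2 tamoxifen libraries and 152 ± 6.82 CPM in 3 anastrozole libraries. The estradiol against vehicle difference within class A was 0.14 ± 0.052 on the log2 scale and was not called (edgeR adjusted p = 0.364; background 0.0619%). Within class B, Irs2 was 113 ± 4.59 CPM in 5 raloxifene libraries, 110.2 ± 5.60 CPM in 4 exemestane libraries and 121 ± 4.08 CPM in 3 tamoxifen libraries, set beside 119.5 CPM in the 1 vehicle library. Tamoxifen against estradiol within class A gave a log2 difference of -0.20 ± 0.065 (edgeR adjusted p = 0.957), and tamoxifen against raloxifene within class B gave 0.08 ± 0.048 (edgeR adjusted p = 0.968).
With class as a term the log2 fold change of Irs2 in raloxifene against vehicle was -0.06 ± 0.054 (edgeR adjusted p = 0.970). Against estradiol it was -0.19 ± 0.058 with raloxifene and -0.22 ± 0.054 with exemestane, with unadjusted p values of 0.00214 and 0.000273 that did not pass the adjustment (edgeR adjusted p = 0.516 and 0.145). In that fit no member was called in any of the 12 comparisons or in the test of any difference. The shares of all genes called were 0.0416% in sham, 0.298% in estradiol, 0.00694% in raloxifene and 0% in tamoxifen, exemestane and anastrozole against vehicle. They were 0% in tamoxifen and raloxifene, 0.0139% in exemestane and 0.00694% in anastrozole against estradiol, 0% in tamoxifen against raloxifene, 0.0278% in exemestane against anastrozole and 0.0278% in the test of any difference. The authors' per-gene factors were then carried into the count model as offsets. For Irs2 their log2 difference in class B against class A was -0.19. Class was defined from these factors, so this is not a second observation of the class difference. With these offsets Irs2 fell in raloxifene against estradiol by 0.24 ± 0.050 (edgeR adjusted p = 0.00173; background 21.8%) and in exemestane against estradiol by 0.24 ± 0.050 (edgeR adjusted p = 0.0035; background 16.1%). Against vehicle it was then -0.11 ± 0.050 with raloxifene and was not called (edgeR adjusted p = 0.150; background 6.41%). With these offsets 0 members were called in exemestane against vehicle (background 0.93%) and in tamoxifen against estradiol (background 1.61%), and 1, Irs2, in the test of any difference (background 17.7%). The part that class plays in the remaining difference was not tested further.

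**Figure D2:**
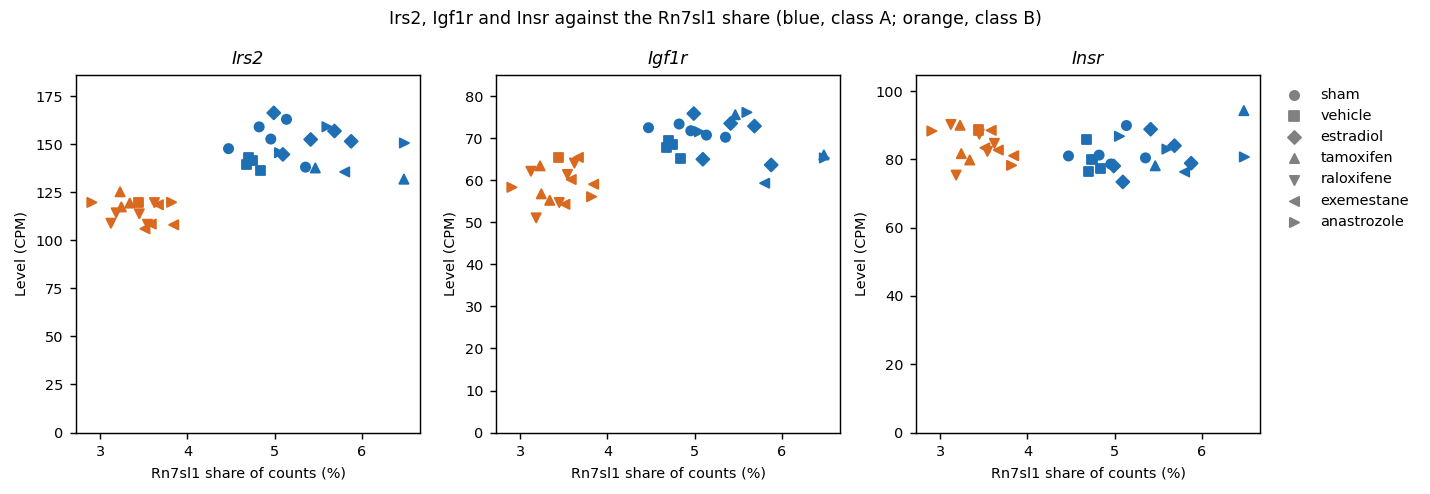
Level in CPM of Irs2, Igf1r and Insr against the share of counts taken by Rn7sl1 in each of the 35 libraries, with marker shape for group and blue for class A, orange for class B. Irs2 forms separate clouds at 132 to 166 CPM and 106 to 125 CPM, Igf1r overlaps in part, and the classes overlap for Insr.

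Irs1, the other substrate, varied less between groups than Irs2. Its mean was 38.0 ± 4.24 CPM in sham, 34.7 ± 3.58 CPM in vehicle and 35.2 ± 2.47 CPM in estradiol libraries. It was 32.5 ± 2.45 CPM with tamoxifen, 30.6 ± 2.52 CPM with raloxifene, 33.3 ± 4.35 CPM with exemestane and 36.5 ± 3.70 CPM with anastrozole (SD, n = 5). The raloxifene libraries, at 30.9, 32.7, 31.5, 31.5 and 26.2 CPM, were the lowest on average and overlapped the vehicle libraries, at 30.4, 39.2, 36.1, 31.7 and 36.0 CPM. The log2 fold change was -0.19 ± 0.091 against vehicle (edgeR adjusted p = 0.126) and -0.21 ± 0.092 against estradiol (edgeR adjusted p = 0.0675). Class B libraries were lower by a log2 value of -0.21 ± 0.060 (edgeR adjusted p = 0.00375), and with class in the model the difference from estradiol was 0.00 ± 0.098, no longer negative (edgeR adjusted p = 0.999).

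The binding protein gene Igfbp5 was higher in the exemestane group than in the estradiol group. Exemestane libraries held 123, 124, 134, 125 and 115 CPM, and estradiol libraries held 107, 115, 100.4, 88.9 and 86.0 CPM. No exemestane library was below any estradiol library, a separation that 15.2% of all genes showed in either direction in that comparison. The gap was narrow, with exemestane replicate 5 at 114.964 CPM and estradiol replicate 2 at 114.925 CPM. Igfbp5 rose by 0.32 ± 0.12 on the log2 scale (edgeR adjusted p = 0.0316), and the call was lost with class as a term at the same size of 0.32 ± 0.15 (edgeR adjusted p = 0.496). Without estradiol replicates 4 or 5 or exemestane replicates 3 or 4, the edgeR adjusted p was 0.0551 to 0.0864, and with the authors' per-gene factors the value was 0.25 ± 0.12 (edgeR adjusted p = 0.154).
Vehicle libraries held 121, 119.8, 75.1, 98.8 and 93.8 CPM of Igfbp5, and anastrozole libraries held 116, 132, 109, 126 and 124 CPM. Against vehicle, the log2 fold change was 0.29 ± 0.12 with exemestane (edgeR adjusted p = 0.0951) and 0.26 ± 0.12 with anastrozole (edgeR adjusted p = 1). Igfbp5 was at 118 ± 13.3 CPM in the 15 class B libraries and at 109 ± 17.1 CPM in the 20 class A libraries (SD). Unlike Irs2, it was not called by class in the fit with class beside the groups, with a log2 difference of 0.00 ± 0.098 (edgeR adjusted p = 0.986). All 4 drug groups had a mean above vehicle, from 115 ± 10.9 CPM with tamoxifen to 124 ± 6.95 CPM with exemestane, set beside 102 ± 19.3 CPM in vehicle. The sham mean, at 110 ± 21.4 CPM, was also above vehicle, and the estradiol mean, at 99.4 ± 12.1 CPM, was below it. None of the differences of the 4 drug groups from vehicle passed the test.
The highest Igfbp5 library was sham replicate 1, at 144 CPM, among sham libraries that otherwise held 117, 96.4, 92.1 and 100.3 CPM. That library also had the highest score of thalamus and habenula markers, 4.71 as a mean log2 CPM, set beside 3.43 to 3.93 in the other 34 libraries, and the lowest score of hippocampal neuron markers, 5.56. Of the thalamus and habenula list, 9 of 10 markers were measured. Their summed level ran from 146 to 384 CPM in sham, 145 to 198 in vehicle, 152 to 166 in estradiol, 165 to 188 in tamoxifen, 183 to 193 in raloxifene, 172 to 199.8 in exemestane and 151 to 185 in anastrozole libraries. The log2 level of Igfbp5 rose with that score by 0.54 ± 0.13 per log2 unit, with group in the model (edgeR adjusted p = 0.00509; 8.01% of all genes called). Without sham replicate 1 the slope was 0.69 ± 0.23 and was not called (edgeR adjusted p = 0.146; 0.897% of all genes called). The part of this tissue in the group differences of Igfbp5 was not tested.

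**Figure D3:**
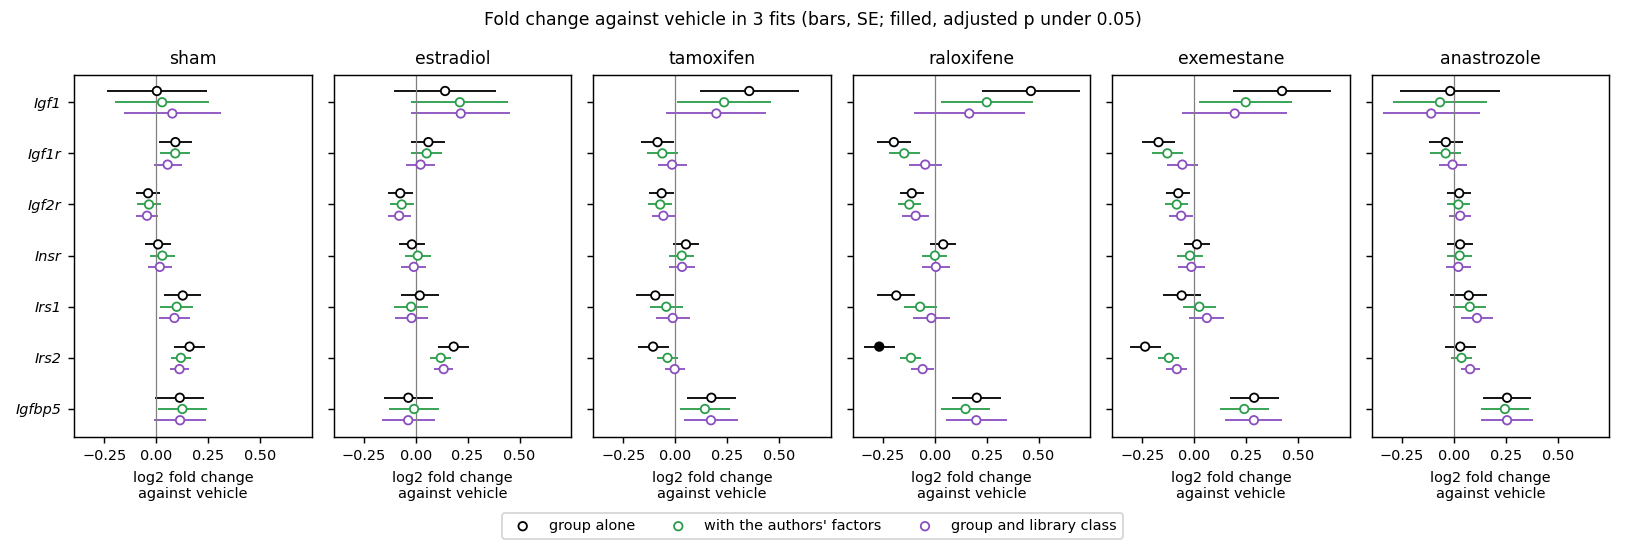
Log2 fold change of the 7 genes against vehicle in each of the other 6 groups, with bars for the SE, from the model with group alone (black), with the authors' per-gene factors (green) and with class as a further term (purple); filled points have an edgeR adjusted p under 0.05. The only filled point is Irs2 with raloxifene in the model with group alone, at -0.27.

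In the drug pairs, the doses differed and are given with each value. Irs2 was 126 ± 8.48 CPM with tamoxifen at 3.23 mg per kg and 113 ± 4.59 CPM with raloxifene at 9.68 mg per kg, a log2 difference of 0.16 ± 0.075 (edgeR adjusted p = 0.584). No member was called between these drugs, nor was any gene (background 0%), with 1 member at an unadjusted p under 0.05 and 0 called by DESeq2 (background 0.0416%). Irs2 was 115 ± 12.3 CPM with exemestane at 0.16 mg per kg and 139 ± 18.2 CPM with anastrozole at 4.03 mg per kg, a log2 difference of -0.27 ± 0.075 (edgeR adjusted p = 0.0901; background 0%). No member was called by edgeR between the aromatase inhibitors, with 1 member at an unadjusted p under 0.05, whereas DESeq2 called 1, Irs2, and 5.93% of all genes. In the model with group alone, the difference of Irs2 passed without exemestane replicate 5, anastrozole replicate 3 or anastrozole replicate 4 (edgeR adjusted p = 0.0091, 0.0334 and 0.0209). Exemestane replicate 5 is the 1 exemestane library of class A, and the others are the 2 anastrozole libraries of class B. Each omission thus brought the comparison nearer to class B against class A. With class as a term, 0 of 10 fits that each left out 1 library passed (edgeR adjusted p from 0.149 to 0.253). Within class B, Irs2 was 110.2 ± 5.60 CPM in 4 exemestane libraries and 119.7 ± 0.056 CPM in 2 anastrozole libraries, a log2 difference of -0.12 ± 0.056 that was not called (edgeR adjusted p = 0.436; background 0.0902%). A p above the threshold does not show that the drugs act alike.

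When the 7 groups were put in order of level for each member, no neighbours in the order differed beyond their spread. Of 42 neighbouring pairs, all overlapped, the smallest exact permutation p (two-sided) was 0.119, and the smallest after adjustment over the 42 pairs was 0.960. With 5 against 5 libraries the smallest p that this test can give is 0.00794. A single separated pair could therefore not pass adjustment over the 42 pairs. The order was taken from these same levels, and neighbours in it are the closest groups. These tests say nothing about groups further apart, and for Irs2 some of those did not overlap, as given above. For Irs2 the order from high to low was estradiol, sham, anastrozole, vehicle, tamoxifen, exemestane and raloxifene. For Igf1r it was sham, estradiol, vehicle, anastrozole, tamoxifen, exemestane and raloxifene, so the same groups stood at the low end for both genes. Tamoxifen, exemestane and raloxifene also hold the most class B libraries, with 3, 4 and 5 of 5, and both genes were called lower in class B. Treatment and class cannot be told apart in these orders.

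The other ligand, Igf2, and the binding protein gene Igfbp2 varied far more between single rats than between treatments. Igf2 was at 9.47 to 29.5 CPM in 20 libraries and at 85.6 to 292 CPM in the other 15. The 15 included 3 of 5 libraries in sham and anastrozole, 2 of 5 in vehicle, tamoxifen, raloxifene and exemestane, and 1 of 5 with estradiol. Igfbp2 was at 3.38 to 11.6 CPM in the same 20 libraries and at 34.6 to 99.6 CPM in the same 15.
These libraries also held the markers of choroid plexus, the tissue in the ventricles that makes cerebrospinal fluid. Its main product Ttr was at 0.495 to 65.8 CPM in the 20 and at 832 to 2770 CPM in the 15. Of the choroid plexus list, 11 of 12 markers were measured, and their summed level ran from 72.8 to 2659 CPM in sham, 96.1 to 4273 in vehicle, 67.1 to 3176 in estradiol, 86.6 to 3986 in tamoxifen, 78.3 to 3169.5 in raloxifene, 73.2 to 2916 in exemestane and 86.4 to 3758 in anastrozole libraries. Sostdc1 was at 0 in 10 libraries, Kcnj13 in 5, and Folr1, Kl, Slc4a5 and F5 in 1 each. The log2 level of Igf2 rose by 0.60 ± 0.020 per log2 unit of the marker score (edgeR adjusted p = 3.08e-21) and that of Igfbp2 by 0.56 ± 0.022 (edgeR adjusted p = 1.63e-19), with 5.16% of all genes called.
The members Igf2r and Insr rose with this score as well, the first by 0.017 ± 0.0049 (edgeR adjusted p = 0.0350) and the other by 0.017 ± 0.0053 (edgeR adjusted p = 0.0499), which is a small step per log2 unit. With class as a further term both passed again, with edgeR adjusted p values of 0.00737 and 0.0249 and a background of 7.76%. Igfbp3 rose by 0.056 ± 0.014 (edgeR adjusted p = 0.0104). The slopes of Igf1, Igf1r, Irs1, Irs2 and Igfbp5 did not pass. In the model with group alone, Igf2, Igfbp2, Igfbp3, Igfbp4, Igfbp6 and Igfbp7 passed in none of the 12 comparisons between groups. With the authors' per-gene factors Igfbp7 rose with raloxifene, by 0.37 ± 0.091 against vehicle (edgeR adjusted p = 0.0216; background 6.41%) and by 0.40 ± 0.092 against estradiol (edgeR adjusted p = 0.0028; background 21.8%). In the model with group alone these values were 0.07 ± 0.096 and -0.05 ± 0.097 (edgeR adjusted p = 0.614 and 0.670).

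**Figure D4:**
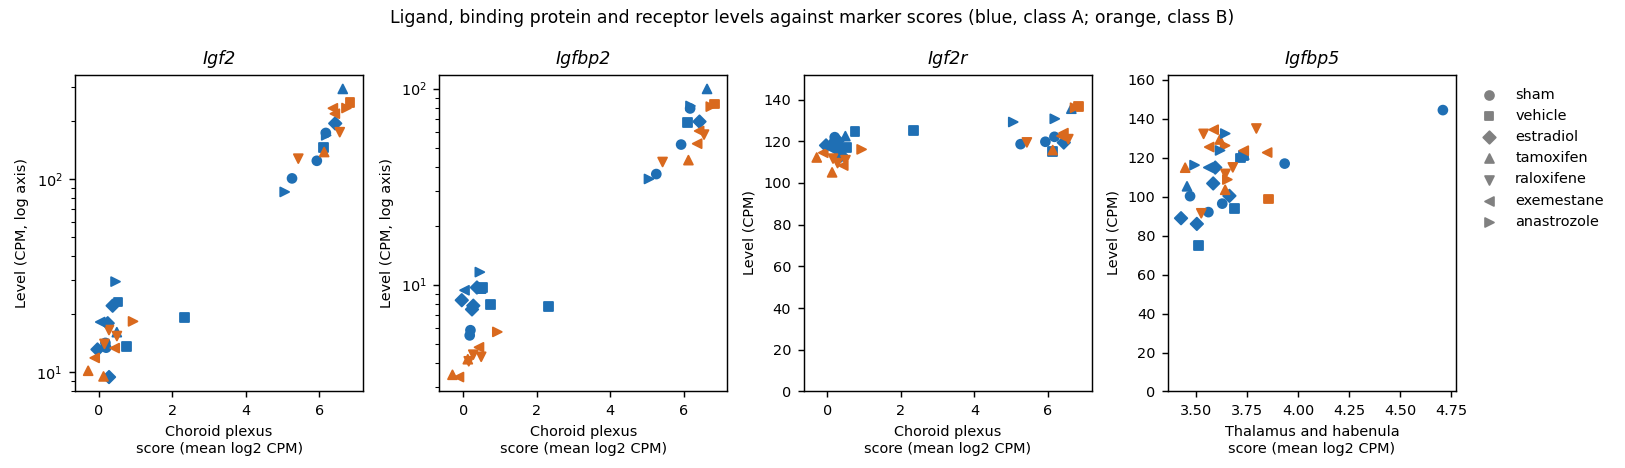
Level in CPM of Igf2, Igfbp2 (log axes) and Igf2r against the choroid plexus score, and of Igfbp5 against the thalamus and habenula score, both scores as mean log2 CPM of their markers; 35 libraries, marker shape for group, blue for class A and orange for class B. Igf2 and Igfbp2 climb by an order of size between the low and high choroid plexus libraries, Igf2r by little, and 1 sham library stands alone at a thalamus score of 4.71.

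A list of 84 other genes of insulin and Igf signalling showed how the rest of the pathway stood, and 73 of them were tested. In raloxifene against vehicle 13 were higher and 17 lower, beside the background of 24.8%, with a median log2 fold change of -0.09 over the list and -0.02 over all genes. The 3 of smallest p were Foxo3, Gsk3b and Rheb. Foxo3, a transcription factor that Akt inactivates, fell from 52.7 ± 8.72 CPM in vehicle to 34.3 ± 4.83 CPM with raloxifene, by 0.62 ± 0.14 on the log2 scale (edgeR adjusted p = 0.0111). Gsk3b, a kinase that Akt inhibits, rose from 98.0 ± 4.43 to 119 ± 5.17 CPM (edgeR adjusted p = 0.0113). Rheb, the GTPase that activates mTORC1, rose from 45.1 ± 3.88 to 57.1 ± 6.32 CPM (edgeR adjusted p = 0.0114).
With class in the model the folds were -0.19 ± 0.097 for Foxo3, 0.13 ± 0.056 for Gsk3b and 0.22 ± 0.084 for Rheb, and none was called (edgeR adjusted p from 0.819 to 0.937).
Among FoxO factors and genes they induce, 0 rose and 4 fell of 12, and among ligands and binding proteins 1 rose and 0 fell of 8. The other branches held calls in both directions. Among receptor-near genes 1 rose and 3 fell of 15. Among PI3 kinase and Akt genes 4 rose and 4 fell of 15, among mTOR genes 3 rose and 5 fell of 12, and among Ras and MAP kinase genes 4 rose and 1 fell of 11. In exemestane against vehicle (background 6.51%) 2 of 73 rose, Sos1 and Rps6kb1, and 2 fell, Gsk3a and Akt1. Sos1 is an activator of Ras and Rps6kb1 encodes the ribosomal S6 kinase. Their log2 fold changes were 0.28 ± 0.083 for Sos1, 0.42 ± 0.13 for Rps6kb1, -0.23 ± 0.065 for Gsk3a and -0.28 ± 0.088 for Akt1 (edgeR adjusted p from 0.0445 to 0.0485). With class in the model they were 0.09 ± 0.053, 0.12 ± 0.086, -0.13 ± 0.053 and -0.08 ± 0.049 in the same order.
In sham, estradiol, tamoxifen and anastrozole against vehicle 0 of the 73 were called by edgeR and by DESeq2, with 11, 9, 19 and 3 at an unadjusted p under 0.05.
Against estradiol the list moved more, as all genes did. With raloxifene 17 of 73 rose and 24 fell (background 44.6%), with exemestane 13 rose and 21 fell (background 36.8%), and with tamoxifen 12 rose and 5 fell (background 14.2%), whereas with anastrozole none passed (background 0.00694%). Foxo6, a FoxO factor expressed in the hippocampus, fell by 1.06 ± 0.19 with raloxifene (edgeR adjusted p = 0.000331) and by 0.87 ± 0.19 with exemestane (edgeR adjusted p = 0.00211), from 24.2 ± 0.91 CPM in estradiol libraries to 11.6 ± 1.16 and 13.2 ± 4.19 CPM. Sos2, the partner of Sos1, rose by 0.58 ± 0.11 with raloxifene and by 0.48 ± 0.11 with exemestane. With class in the model the folds of Foxo6 were -0.33 ± 0.12 and -0.32 ± 0.11 and those of Sos2 0.18 ± 0.076 and 0.16 ± 0.071, none of them called. With the authors' factors the folds of Foxo6 were -0.33 ± 0.098 and -0.28 ± 0.097 and those of Sos2 0.30 ± 0.076 and 0.24 ± 0.077, all called (edgeR adjusted p from 0.0057 to 0.0441).
None of the 73 passed in any of the 12 comparisons once class was in the model, and 19 were higher and 25 lower in class B than in class A (background 51.9%). With the authors' factors, 5 rose and 3 fell in raloxifene against vehicle (background 6.41%), with a log2 fold of -0.36 ± 0.091 for Foxo3 (edgeR adjusted p = 0.0243). As for Irs2, the calls over the list depended on whether class was in the model.

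The genes whose levels ran most alike with each member were named by Pearson correlation of log2 CPM over the 35 libraries, among 12602 genes. For Irs2 they were Nrxn2 (r = 0.942), Midn (r = 0.941) and Tmem151b (r = 0.940), and for each of them r was lower within each class. Within class A the r of Nrxn2 with Irs2 was 0.681 and within class B it was 0.519. For Igf1r they were Tbc1d17 (r = 0.830), Samd4b (r = 0.820) and Atn1 (r = 0.816), and for Irs1 they were Traf4 (r = 0.768), Ebf4 (r = 0.764) and E4f1 (r = 0.762). For Insr the list held the binding protein gene Igfbp3 (r = 0.683) after Ca12 (r = 0.702), and before Ccdc141 (r = 0.672). Igfbp3 remained among the 3 most alike to Insr after centring on group within class (r = 0.765), with r = 0.647 in class A and 0.743 in class B.
For Igf2r the genes were Tagln (r = 0.808), Plxnb2 (r = 0.792) and Idh2 (r = 0.792). For Igfbp5 they were Glra2 (r = 0.719), Efhc2 (r = 0.718) and Helq (r = 0.702) and, after centring, Hap1 (r = 0.783), Nnat (r = 0.770) and Mtss1 (r = 0.744). For Igf1 they were Tmem60 (r = 0.756), Sema3e (r = 0.702) and Copb1 (r = 0.690). These values describe 35 libraries that differ in class, depth and dissection, and carry no test. Insr and Igfbp3 both rose with the choroid plexus score, as given above, and its part in their correlation was not tested.
Between the members themselves 42 correlations were tested within the classes, and none passed adjustment. The closest were Igf2r with Insr in the 20 class A libraries (r = 0.640, permutation p = 0.00275, adjusted p = 0.116; rho = 0.486, permutation p = 0.0319, adjusted p = 0.268) and Igf1 with Irs1 in the 15 class B libraries (r = -0.680, permutation p = 0.0058, adjusted p = 0.122; rho = -0.729, permutation p = 0.00281, adjusted p = 0.118). Without the 2 libraries farthest from the median of the first gene, r was 0.486 and -0.684.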

How the data were processed

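Per the labels' protocols, stranded libraries were made from poly(A) RNA with a quality value above 7 and read as 100 bp pairs with a target of 30 mega reads. Per the submitters' processing notes, Salmon and DESeq2 were used; versions, annotation and genome build are not given in the sources used here. The authors deposited expected counts per gene as whole numbers, not scaled for depth, and a normalized signal per gene. The ratio of the 2 tables gave the authors' factor for each gene and library. Library class is the sign of the first principal component of the log2 factors of 14326 genes, after removing each library's median and centring by gene; it held 72.3% of the variance and the next component 1.69%. The plan named only the centring by gene, and the library median was removed after the data were seen.

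The count model was the robust quasi-likelihood F-test of edgeR 4.0.16 (R 4.3.3), fitted to all 35 libraries with a term for each of 7 groups after filterByExpr and TMM scaling, with Benjamini-Hochberg adjustment over 14411 genes and a threshold of 0.05. The common biological coefficient of variation was 0.152. Standard errors come from the fold change and its F statistic. Totals of 5578204 to 12093294 counts set the precision of low genes such as Igf1. Alternatives were class as a term, each class alone, the authors' factors, DESeq2 1.42.0, its size factors, no filter, marker scores as covariates, the 2 groups alone and leaving out each library. On simulated counts for estradiol against vehicle (14411 genes, 200 changed), 76% of genes changed by 1 log2 unit were recovered and 36% of those changed by 0.5, with 5 false calls of 117. The simulation gave all libraries a common mean profile without a class difference and was fitted with group alone. These rates therefore do not cover the class difference in the data or the fit with class.

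The members and lists were chosen with earlier results of these data known. Named genes were the 7 members, the 3 genes most correlated with each (mean of at least 1 CPM), up to 4 called list genes of smallest p per comparison, and Igf2 with the other binding proteins. Marker scores are mean log2 CPM with a prior count of 2. The labels name separate rats and no pooling, and replicates carry numbers in accession order only. Levels are not compared between genes, since transcript lengths were not used here. Gene symbols matched RefSeq for 13091 genes and all 7 members.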

Additional observations from a re-analysis of the deposited data

Results flagged for a closer look

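In 4 of the 49 sets of 5 libraries (7 genes in 7 groups), 1 library stood apart from the other 4 of its group by more than Dixon's critical value of 0.71 for the gap over the range, and chance alone flags about 1 in 20 such sets. Irs2 in vehicle replicate 4 was at 119.5 CPM, set beside 136.2 to 142.9 CPM in the other vehicle libraries. It is the 1 vehicle library of class B. Without it Irs2 in exemestane against vehicle passed the test in the model with group alone but not with class as a term. Insr in sham replicate 2 was at 89.9 CPM, set beside 78.63 to 81.24 CPM. Irs1 in raloxifene replicate 5 was at 26.24 CPM, set beside 30.89 to 32.74 CPM; that library also had the lowest Igf1r level. Igf1 in estradiol replicate 3 was at 1.966 CPM, set beside 2.651 to 2.823 CPM, a difference of few counts.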

How the results depend on the processing

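No paired analysis was possible because the labels carry no replicate numbers shared between groups. Once class was a term, 0 members were called in all 12 comparisons and in the test of any difference, where the model with group alone had called 1 in raloxifene against vehicle, 1 in tamoxifen against estradiol, 2 in raloxifene against estradiol, 3 in exemestane against estradiol and 2 in the test of any difference. The fold of Irs1 in raloxifene against estradiol turned from -0.21 to 0.0032 in that fit. With the authors' factors the counts were 0 in raloxifene against vehicle, 0 in tamoxifen against estradiol, 1 in exemestane against estradiol and 1 in the test of any difference. In class A alone, tamoxifen against estradiol had 0. A fit of the 2 groups alone called 2 in raloxifene against vehicle (35.1% of all genes) and 0 in tamoxifen against estradiol (0% of all genes). In exemestane against vehicle, DESeq2 called 1 (13.7% of all genes), the choroid plexus score as a covariate 1 (9.85%) and the thalamus score 2 (11.8%); DESeq2 also called 1 in exemestane against anastrozole (5.93%). The cause of these shifts was not tested. Class B alone gave no comparison with vehicle, which has 1 library there.

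Leaving out 1 library at a time, the counts ran from 0 to 1 in exemestane against vehicle and in exemestane against anastrozole, from 0 to 2 in tamoxifen against estradiol and from 1 to 3 in raloxifene against estradiol, in exemestane against estradiol and in the test of any difference. They were 1 in every fit for raloxifene against vehicle and 0 in every fit for the other comparisons. Shares of all genes called in these fits are not given here, so the changes are not read as particular to the members. The count for tamoxifen against estradiol was 2 without tamoxifen replicate 1. Raloxifene against estradiol fell to 1 without raloxifene replicate 5, and exemestane against estradiol to 1 without estradiol replicate 4 or exemestane replicate 4. The test of any difference fell to 1 without estradiol replicate 1 or raloxifene replicates 4 or 5. With class as a further term, the count was 0 in every such fit. Over the fits with and without that term, the log2 folds ran from -0.2334 to 0.0276 for Igf1r and from -0.2324 to 0.03901 for Irs1 in raloxifene against vehicle. They ran from -0.2049 to 0.01978 for Igf1r in exemestane against vehicle, from -0.2358 to 0.05366 for Irs1 in raloxifene against estradiol and from -0.2676 to 0.004729 for Igf1r in exemestane against estradiol, and all their values above 0 came from fits with the term. Depth limits Igf1, at 10 to 40 counts per library.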
